A study of Bos taurus with 8 samples.

Results

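The amino acid transporters of the solute carrier (SLC) families 1, 3, 6, 7, 15, 36, 38 and 43 were examined in the blastocyst of cattle, whose inner cell mass (ICM) and trophectoderm (TE) had been separated. Every gene symbol of the array's annotation that begins with SLC1A, SLC3A, SLC6A, SLC7A, SLC15A, SLC36A, SLC38A or SLC43A was taken, which gave 57 genes measured by 73 probes, of 15229 named genes. Where a gene had several probes, the one with the highest mean intensity stands for it. The prefixes are those of families, so not every gene taken carries an amino acid. SLC7A6OS is only the opposite-strand neighbour of SLC7A6, and a few SLC6 members carry neurotransmitters or creatine.

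The embryos were expanded blastocysts flushed at day 7.5 post insemination from Holstein cows superovulated with FSH, given prostaglandin and inseminated. ICM was freed by microsurgery and immunosurgery, in which the pieces holding it were incubated with antiserum and then with complement. TE was taken from cut blastocysts without this incubation, so an effect of tissue and one of handling cannot be told apart. Each tissue was pooled over embryos into 4 pools. Amplified RNA of an ICM pool and a TE pool was hybridised together on 2 two-color arrays with exchanged Cy3 and Cy5 dyes, so that 8 arrays measured 4 pool pairs. The sources used here do not say whether the pools came from separate cows, so the p-values measure the spread between these pools.

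Amino acids cross the plasma membrane through carriers that differ in substrate and in driving force. SLC1 and SLC38 carriers use the sodium gradient, many SLC7 proteins exchange one amino acid for another only when bound to a heavy subunit of family SLC3, SLC15 carriers bring in small peptides with protons, and SLC43 carriers let large neutral amino acids pass down their gradient. In the preimplantation embryo amino acids serve protein synthesis, osmotic balance and signalling, and in the mouse the uptake of leucine and arginine at the blastocyst stage is known to act through mTORC1 on the trophectoderm.

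Every ratio is given as log2 of the signal of the RNA labelled ICM divided by that of the RNA labelled TE, so a positive value lies on the side of the RNA labelled ICM. This direction follows the dyes in the sample labels, and for lineage markers such as NANOG it runs against the direction of the study. By these labels NANOG, a transcription factor of the epiblast, was at -4.13, -2.96, -3.24 and -3.67 in the 4 pool pairs (mean -3.50 ± 0.21, SE, limma, adjusted p = 0.00317), that is, lower in the RNA labelled ICM. Of 18 trophoblast markers, the RNA labelled ICM had 15 higher and none lower, GATA2, GATA3 and TFAP2A among the former with 1.80, 0.82 and 2.05, whereas 8 of 14 epiblast markers, POU5F1 with -0.84 among them, and 4 of 12 hypoblast markers were lower and 1 of each was higher. The summed signal of the trophoblast markers ran from 198000 to 226000 over the 4 pools labelled ICM and from 99500 to 116000 over those labelled TE, and that of the epiblast markers from 21700 to 28800 and from 57600 to 76400. Both ranges were apart, in the order opposite to the labels. For hypoblast markers the sums were 28200 to 46800 and 65500 to 72400. Of 14 markers of blood, cumulus and uterine cells, 1 was called (CYP19A1, 0.49). The paper reports CYP19A1 as upregulated in TE, so it is not specific to those cells. Another 5 (AMH, OVGP1, PAEP, PGR and ESR1) stayed below the negative-control limit on every channel, and the sums overlapped at 3740 to 8040 and 3580 to 7160. By these markers the RNA labelled ICM resembled TE. The study's RT-qPCR, which does not depend on the array dyes, had NANOG higher in ICM and GATA2 higher in TE, opposite to these labels. Whether the dye labels are turned was not tested, and if they are, every ratio given here changes its sign. The groups are therefore named by their labels throughout, and the side of the RNA labelled TE is the side on which NANOG lay. Because whole pools were measured, fewer cells of a type and less RNA per cell cannot be told apart.

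The array as a whole was dim. Between 48.2% and 65.6% of the probes exceeded a limit set at 2 SD above the mean of 153 negative control spots, depending on the channel, and the median probe was 1.17 to 1.41 times as bright as the median negative control. Of the 57 transporter genes, 36 were above this limit on at least 4 of the 8 channels of both labels, SLC15A2 was so for the RNA labelled ICM alone and SLC6A15 for the RNA labelled TE alone, and 19 were above it for neither label. Of those 19, 10 were below the limit on all 16 channels. The 19 dim genes, which include SLC7A1, a carrier of cationic amino acids, SLC38A1, a carrier of glutamine, SLC1A2, a carrier of glutamate, and SLC6A14, a carrier of neutral and cationic amino acids, had ratios between -0.05 and 0.05, none of which was called. For these genes the arrays gave no measurement well above background, and a difference was not detectable.

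Of the 57 genes, the RNA labelled ICM had 8 higher and 6 lower at an adjusted p of 0.05 or less (limma, 4 pool pairs, Benjamini-Hochberg over all probes). These are shares of 14% and 10.5%, beside 5.57% and 5.19% of all 43794 probes and 8.69% and 6.85% of the named genes. Higher were SLC7A5, SLC7A4, SLC43A2, SLC7A6, SLC15A1, SLC1A1, SLC15A4 and SLC38A11, and lower were SLC7A7, SLC1A4, SLC1A3, SLC38A2, SLC1A5 and SLC7A8. With the 8 arrays fitted singly by limma and the pool pair as a block, 11 genes were higher and 6 lower. The 3 gained were SLC6A4, SLC36A2 and SLC38A6 (adjusted p = 0.00392, 0.0116 and 0.00505), and 7976 probes were called over the array in place of 4714. The within-pair correlation of that fit was 0.0356, so it took the 2 arrays of a pair as nearly independent. With a dye term the correlation was 0.438, and the same 3 genes were gained (adjusted p = 0.00783, 0.0239 and 0.0161). The median ratio of the 57 genes was 0.01, as was that of all probes, and the called genes lay on both sides of it. Each of the 14 called genes had a single sign on 8 of 8 arrays. All 14 lay above the negative-control limit for both labels, so that among the 38 genes above it for at least 1 label 21.1% were higher and 15.8% lower, against 12.1% and 9.52% of the 10961 named genes above it. At an adjusted p of 0.01 or less, 1 of the 57 genes was higher (SLC1A1) and 3 were lower (SLC1A3, SLC7A7 and SLC38A2). Of all probes 1.92% were higher and 1.35% lower at this bound, and of the 15229 named genes 510 and 292. The same 510 and 292 were among the 10961 named genes above the limit. The counts changed with the pools included. Without pool pair 1, 2, 3 or 4 the number of genes higher was 5, 2, 3 and 1 and the number lower was 6, 3, 4 and 2, and with median centring in place of loess it was 0 on both sides (limma), where all 14 genes kept their sign and an unadjusted p under 0.05.

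**Figure D1:**
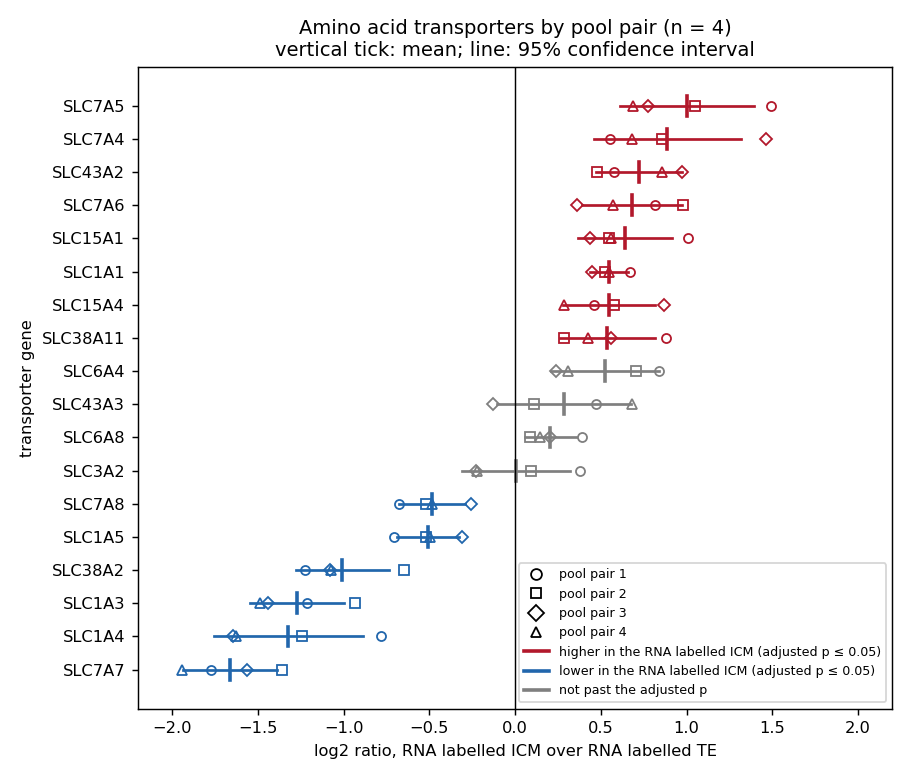
Log2 ratio of the RNA labelled ICM to that labelled TE (horizontal axis) for the 14 called transporter genes and for SLC6A4, SLC43A3, SLC6A8 and SLC3A2 (vertical axis). Open symbols stand for the 4 pool pairs, vertical ticks for their mean and lines for the 95% confidence interval. All symbols of the called genes lie on one side of 0, whereas those of SLC43A3 and SLC3A2 lie on both.

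The called genes were mostly those of bright probes. A probe's brightness is given as its percentile among all probes and depends on the probe's own sequence as well as on the transcript, so it does not rank the transcripts. In descending order the 10 brightest were SLC7A5 (percentile 99.2), SLC38A2 (98.6), SLC43A3 (96.5), SLC7A7 (96.0), SLC1A3 (95.2), SLC43A2 (94.2), SLC1A4 (91.0), SLC6A8 (90.6), SLC15A4 (90.2) and SLC7A4 (88.2). Of these 10 genes, SLC7A5, SLC43A2, SLC15A4 and SLC7A4 were higher in the RNA labelled ICM, SLC38A2, SLC7A7, SLC1A3 and SLC1A4 were lower, and SLC43A3 and SLC6A8 were not called. Above the percentile of 75 lay 18 of the 57 genes, of which 7 (38.9%) were higher and 5 (27.8%) lower, against 20.4% and 15.8% of the 5620 named genes in that range. The other 2 called genes, SLC1A1 and SLC7A8, had percentiles of 74.2 and 74.9.

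**Figure D2:**
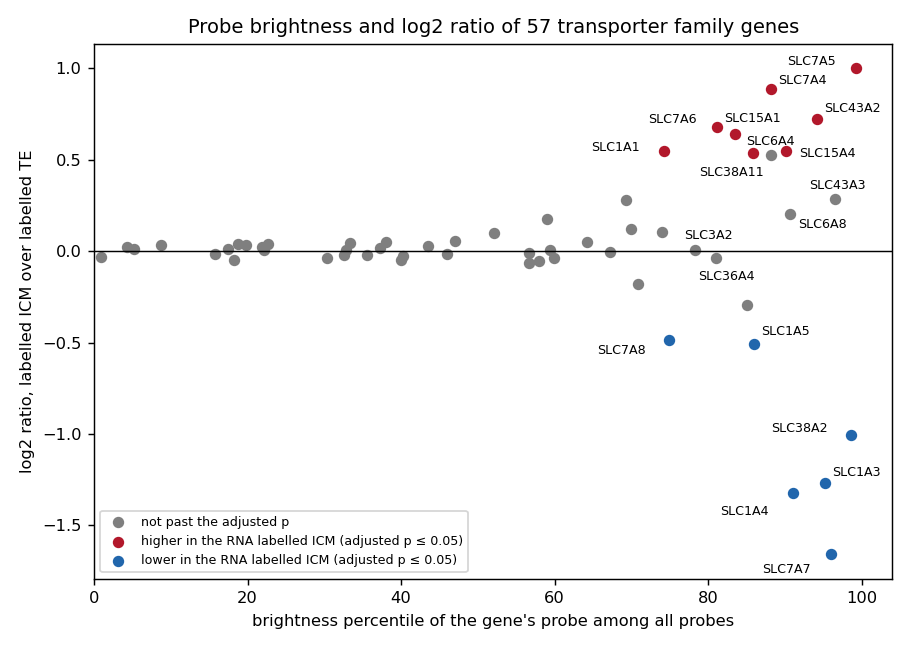
Brightness percentile of each gene's probe among all probes (horizontal axis) against its log2 ratio of the RNA labelled ICM to that labelled TE (vertical axis) for the 57 transporter genes. Red points are genes higher and blue points genes lower at an adjusted p of 0.05 or less, and grey points are the rest. The colored points begin at a percentile of 74.2, and the genes to the left of it lie near 0.

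The light subunits that need the heavy chain SLC3A2 (4F2hc) lay on both sides. SLC7A5 (LAT1), the exchanger that brings in leucine and other large neutral amino acids, had normalized log2 signals of 15.11, 14.99, 14.78 and 14.94 in the pools labelled ICM and of 13.62, 13.94, 14.00 and 14.25 in those labelled TE. The lowest pool labelled ICM was above the highest labelled TE. The ratio was 1.49, 1.05, 0.77 and 0.69 in the 4 pool pairs (mean 1.00 ± 0.15, SE, adjusted p = 0.0221). SLC7A8 (LAT2), the exchanger of the same system with the broader range of neutral substrates, lay on the other side. Its signals were 8.19 to 8.60 in the pools labelled ICM and 8.70 to 9.28 in those labelled TE, also without overlap, and its ratios were -0.68, -0.52, -0.26 and -0.49 (mean -0.49 ± 0.07, adjusted p = 0.0225).

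The pair of y+L exchangers, which release cationic amino acids such as arginine in return for neutral ones and sodium, was divided in the same way. SLC7A7 (y+LAT1), the carrier affected in human lysinuric protein intolerance, had signals of 11.42, 11.74, 11.65 and 10.97 in the pools labelled ICM and of 13.20, 13.10, 13.22 and 12.92 in those labelled TE. The ranges were more than 1 log2 unit apart. With ratios of -1.77, -1.36, -1.57 and -1.94 (mean -1.66 ± 0.10, adjusted p = 0.00353) it was 3.16-fold lower in the RNA labelled ICM, the largest difference among the 57 genes. SLC7A6 (y+LAT2) was higher instead, with signals of 9.48, 9.85, 9.47 and 9.62 against 8.66, 8.87, 9.11 and 9.05 and ratios of 0.81, 0.98, 0.36 and 0.57 (mean 0.68 ± 0.11, adjusted p = 0.0281). Pool pair 3 gave the smallest ratio, and the signals of the labels did not overlap. The other 2 probes of SLC7A6 were below the limit on most channels and had ratios of -0.03 and -0.02. Averaged over its 3 probes, SLC7A6 was at 0.21 and did not pass (adjusted p = 0.0533, with a range of 0.000405 to 0.173 over 17 alternatives).

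SLC3A2 itself, the heavy chain that these 4 subunits share, was bright (percentile 78.3) and was not called. Its signals spanned 8.90 to 9.15 in the pools labelled ICM and 8.77 to 9.21 in those labelled TE, and its ratios were 0.38, 0.09, -0.23 and -0.22 (mean 0.01, 95% confidence interval -0.31 to 0.32, adjusted p = 0.986). Of the other partners of SLC3A2, SLC7A11 (xCT), which exchanges cystine for glutamate, had a ratio of -0.01 (interval -0.06 to 0.05) and SLC7A10 (Asc-1), which carries small neutral amino acids, one of 0.05 (-0.02 to 0.13). Neither SLC3A1 (rBAT), the heavy chain of the renal cystine transporter, at -0.01, nor its light subunit SLC7A9 at 0.05 was called. SLC7A11, SLC7A10, SLC3A1 and SLC7A9 were near the negative-control limit. Their signals were 1.345, 1.043, 1.101 and 1.238 times it in the RNA labelled ICM and 1.43, 1.094, 1.117 and 1.24 times in that labelled TE. The offset shrinks the ratios of such dim probes, so the narrow intervals do not show equal expression.

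In the other branch of SLC7, which works without a heavy chain, only SLC7A4 was called. This gene resembles the cationic amino acid transporters in sequence, and its substrate is uncertain. Its signals were 10.21, 10.95, 11.26 and 10.55 in the pools labelled ICM and 9.65, 10.10, 9.80 and 9.87 in those labelled TE. They did not overlap, and the ratios of 0.56, 0.85, 1.46 and 0.68 (mean 0.89 ± 0.16, adjusted p = 0.0385) spread more than those of the other genes called higher. The established cationic carriers SLC7A1, SLC7A2 and SLC7A3 had ratios of 0.01, -0.02 and -0.02. SLC7A1 and SLC7A2 were dim in both labels. SLC7A3 was near the negative-control limit, at 1 and 1.028 times it in the RNA labelled ICM and that labelled TE. At these signals the ratios do not show equal expression.

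Family SLC1 had the largest share of calls, with 1 gene higher and 3 lower of 7. SLC1A3 (EAAT1), a sodium-driven glutamate and aspartate carrier, had signals of 11.09, 11.36, 11.30 and 11.61 in the pools labelled ICM and of 12.31, 12.30, 12.74 and 13.09 in those labelled TE. Each pool labelled TE was brighter than all pools labelled ICM, with ratios of -1.21, -0.94, -1.44 and -1.49 (mean -1.27 ± 0.10, adjusted p = 0.00573). A second probe of SLC1A3 was also called lower (-0.42, adjusted p = 0.00457), and the third, a dim one, was at -0.04. SLC1A1 (EAAT3), a carrier of the same substrates that also takes up cysteine, lay on the opposite side. Its signals were 9.06, 8.92, 8.97 and 8.76 against 8.39, 8.40, 8.52 and 8.21, without overlap. Its ratios of 0.67, 0.52, 0.45 and 0.55 (mean 0.55 ± 0.04, adjusted p = 0.00497) had the smallest standard error among the 14 called genes.

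Both neutral exchangers of the family were lower in the RNA labelled ICM. SLC1A4 (ASCT1), which carries alanine, serine and cysteine, had signals of 10.64, 9.53, 10.48 and 10.06 in the pools labelled ICM and of 11.43, 10.77, 12.12 and 11.68 in those labelled TE. The highest pool labelled ICM came close to the lowest labelled TE, but the pairs all differed the same way, by -0.78, -1.24, -1.64 and -1.63 (mean -1.32 ± 0.16, adjusted p = 0.0146). A second bright probe of SLC1A4 was at -0.92 and did not pass (adjusted p = 0.0621), and the third, below the limit on all channels, was at -0.01. SLC1A5 (ASCT2), the glutamine exchanger that many dividing cells use, had a smaller difference. Its signals overlapped (9.21, 9.61, 9.90 and 9.97 against 9.92, 10.13, 10.20 and 10.47), yet within each pool pair it was lower in the RNA labelled ICM, with ratios of -0.71, -0.52, -0.31 and -0.50 (mean -0.51 ± 0.07, adjusted p = 0.0178). The glutamate carriers SLC1A2, SLC1A6 and SLC1A7 were dim and had ratios from 0.02 to 0.04.

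In family SLC38, SLC38A2 (SNAT2) was the bright member that was lower. It is the sodium-driven carrier of alanine, glutamine and other small neutral amino acids whose mRNA is induced when amino acids are short. Signals were 13.24, 13.40, 13.06 and 13.29 in the pools labelled ICM and 14.46, 14.05, 14.14 and 14.36 in those labelled TE, without overlap. The ratios were -1.23, -0.65, -1.08 and -1.07 (mean -1.01 ± 0.10, adjusted p = 0.00938). This rested on 1 of its 3 probes: the other two, near the middle of the brightness range, had ratios of 0.03 and -0.13 and did not pass (adjusted p = 0.826 and 0.304). SLC38A11, a member of unsettled substrate, was higher, with signals of 9.90 to 10.78 against 9.49 to 9.89 and ratios of 0.88, 0.28, 0.56 and 0.43 (mean 0.54 ± 0.11, adjusted p = 0.0454). Its ranges adjoined without crossing, and its second probe was at 0.05 (adjusted p = 0.496). SLC38A6 was at 0.41, 0.21, 0.41 and 0.10 (mean 0.28) and SLC38A7, a glutamine carrier of the lysosome, at 0.05, 0.29, 0.17 and -0.03 (mean 0.12). Neither passed, with adjusted p = 0.0656 for SLC38A6 (0.0161 with the pool pair as a block and a dye term) and 0.351 for SLC38A7. The remaining SLC38 members lay between -0.04 and 0.01.

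The proton-driven peptide carriers of family SLC15 gave calls on the side of the RNA labelled ICM, 2 of 4 genes. SLC15A1 (PEPT1), the intestinal carrier of dipeptides and tripeptides, had signals of 10.43, 9.75, 9.67 and 9.69 against 9.42, 9.20, 9.23 and 9.13 and ratios of 1.01, 0.55, 0.44 and 0.56 (mean 0.64 ± 0.10, adjusted p = 0.0282). Pool pair 1 was the highest, and no pool labelled TE reached the pools labelled ICM. SLC15A4 (PHT1), which carries histidine and peptides across lysosomal membranes, had signals of 11.07, 10.73, 11.32 and 10.69 against 10.61, 10.15, 10.46 and 10.41, also apart, and ratios of 0.46, 0.57, 0.87 and 0.28 (mean 0.55 ± 0.10, adjusted p = 0.0395). SLC15A2, which was above the limit on 4 of 8 channels of the RNA labelled ICM and 3 of those labelled TE, and SLC15A3, which was dim, had ratios of 0.03 and 0.01.

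Of the SLC43 uniporters, SLC43A2 (LAT4), which passes leucine, phenylalanine and methionine, was higher in the RNA labelled ICM. The pools differed more from each other than the labels did: signals were 12.71, 11.98, 11.12 and 12.17 in the pools labelled ICM and 12.13, 11.51, 10.15 and 11.31 in those labelled TE, so the ranges overlapped. Within the pairs the ratios were 0.58, 0.48, 0.97 and 0.86 (mean 0.72 ± 0.10, adjusted p = 0.0169). SLC43A3, which in human cells carries purine bases rather than amino acids, had one of the brightest probes and was not called. Its ratios of 0.47, 0.11, -0.13 and 0.68 (mean 0.28, interval -0.11 to 0.67, adjusted p = 0.381) differed in sign between pools. SLC43A1 (LAT3) was at 0.11 (adjusted p = 0.350).

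**Figure D3:**
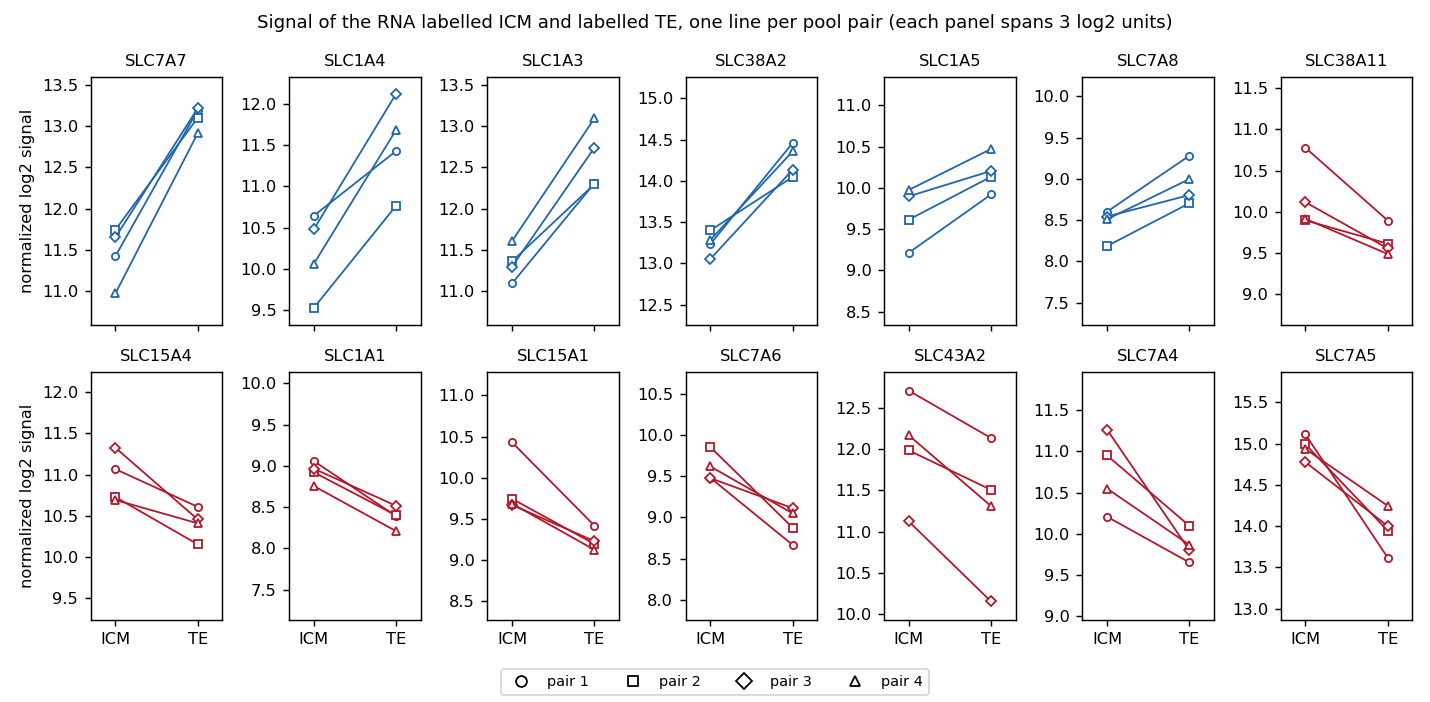
Normalized log2 signal (vertical axes, 3 log2 units in each panel) of the pools labelled ICM and TE (horizontal axes) for the 14 called transporter genes, with 1 line and symbol per pool pair. Blue panels are genes lower and red panels genes higher in the RNA labelled ICM. Every line of a panel slopes the same way, and the ranges of the labels overlap only in SLC1A5 and SLC43A2.

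No gene of families SLC6 (15 genes) and SLC36 (4 genes) was called by limma over the 4 pool pairs, and 4 and 2 of them had an unadjusted p under 0.05. Of the 15 SLC6 genes, 7 were above the limit for both labels. SLC6A8, the creatine transporter, was the brightest of them, with ratios of 0.39, 0.08, 0.21 and 0.15 (mean 0.21 ± 0.06, adjusted p = 0.106). SLC6A4, the serotonin transporter, was at 0.84, 0.71, 0.24 and 0.31 (mean 0.52, interval 0.21 to 0.84), all positive. Its signals did not overlap (10.34 to 10.95 against 9.53 to 10.24). It did not pass (adjusted p = 0.0686), although it did with the pool pair as a block and a dye term (0.00783). The taurine carrier SLC6A6 and the glycine carrier SLC6A9, both known for osmolytes of early embryos in the mouse, were at 0.01 (interval -0.07 to 0.08) and -0.06 (-0.13 to 0.02). Both were near the negative-control limit, at 1.112 and 1.065 times it in the RNA labelled ICM and 1.125 and 1.196 times in that labelled TE. At this signal the narrow intervals do not show equal expression. SLC6A20, a carrier of proline, was at -0.18 (adjusted p = 0.154). Family SLC36 holds proton-driven carriers of small amino acids, some of them on the lysosome. Its ratios ran from -0.04 for SLC36A4 to 0.18 for SLC36A2 (adjusted p = 0.0792, and 0.0239 with the pool pair as a block and a dye term).

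Including the genes not called, 14 of the 57 genes were above 0 in 4 of 4 pool pairs and 11 were below, against 16% and 15.9% of all probes. In 9 genes the 4 signals of the RNA labelled ICM all exceeded those of the RNA labelled TE and in 6 they were all below, against 6.3% and 6.88% of all probes. This held for 7 of the 8 genes called higher, all but SLC43A2, and for 5 of the 6 called lower, all but SLC1A5. The shares of all probes are no matched background for these counts. The 43794 probes include 22004 without a symbol, whereas each of the 57 genes stands by its brightest probe. Among the 43 genes not called, 7 had an unadjusted p under 0.05 (SLC6A2, SLC6A4, SLC6A8, SLC6A20, SLC36A1, SLC36A2 and SLC38A6). SLC7A6OS, the gene that is no carrier, was at -0.10, -0.15, -0.20 and -0.73 (mean -0.30, adjusted p = 0.252).

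Each slide held the 4 arrays of a single dye orientation, and an effect of the slide cannot be told apart from an effect of the dyes. The ratio was computed within each slide as well, with limma on its 4 arrays. All 14 called genes kept their sign on both slides, which follows from their single sign on 8 of 8 arrays. SLC7A7 was at -1.68 on the slide with ICM in Cy5 and -1.64 on the slide with TE in Cy5, SLC7A5 at 0.99 and 1.01, SLC7A4 at 0.87 and 0.90, and SLC7A8 at -0.47 and -0.50. For these 4 genes the slides gave nearly the same value. SLC43A2 differed most, with 1.02 and 0.42, followed by SLC1A5 with -0.72 and -0.30. SLC43A2, SLC1A5 and SLC38A11 (0.54) did not pass on the slide with TE in Cy5, and SLC15A4 (0.44) not on that with ICM in Cy5, with adjusted p of 0.0930, 0.141, 0.0512 and 0.0638. The difference between the slides was not tested.

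Some bright genes without a call had opposite ratios on the slides. SLC6A8 was at -0.18 with ICM in Cy5 (adjusted p = 0.257) and at 0.59 with TE in Cy5 (adjusted p = 0.00281), that is, brighter in Cy3 on both slides, and its mean of 0.21 joins unlike values. SLC36A4, an amino acid carrier of the plasma membrane and lysosome, was at -0.39 (adjusted p = 0.0123) and 0.31 (adjusted p = 0.0528), which cancel in its mean. SLC36A1 was at 0.26 (adjusted p = 0.0146) and -0.06, although dimmer (percentile 52.1).

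**Figure D4:**
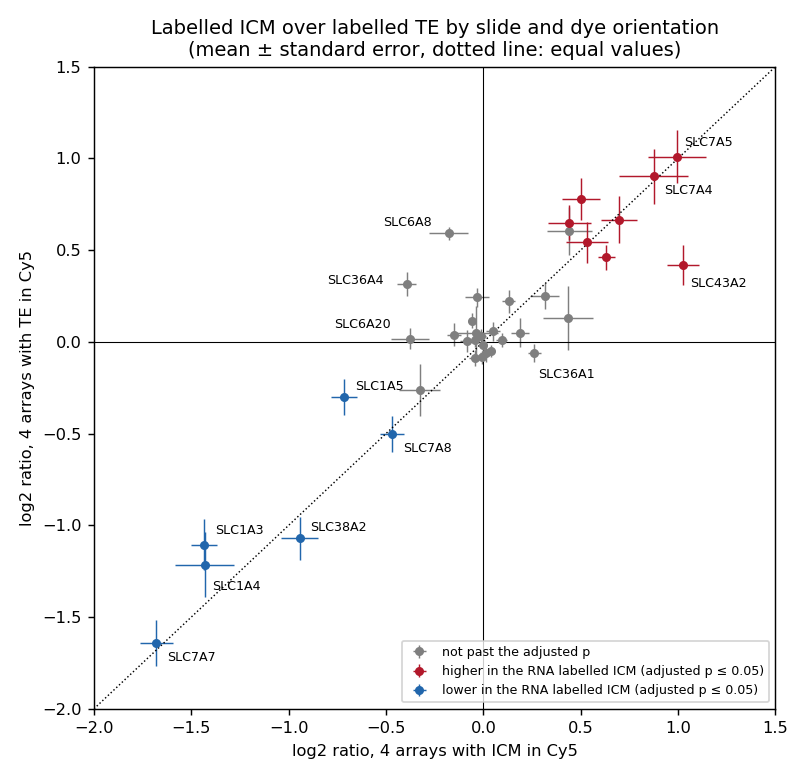
Log2 ratio of the RNA labelled ICM to that labelled TE from the 4 arrays with ICM in Cy5 (horizontal axis) and from the 4 arrays with TE in Cy5 (vertical axis), for the transporter genes above the negative-control limit in at least 1 label. Points are means with standard errors, colored by call, and the dotted line marks equal values. The called genes lie in the quadrants of equal sign, SLC43A2 and SLC1A5 farthest from the dotted line, and SLC6A8 and SLC36A4 lie in the quadrant of opposite sign.

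Most of the 14 calls were lost in at least 1 of the fits that left out a pool pair. Calls fell over the whole array too, from 4714 probes to 3968, 2452, 2069 and 2425 without pair 1, 2, 3 or 4. Whether a loss came from the omitted pair or from the smaller number of pairs was not tested. No sign could change, as all pairs of a called gene shared it. SLC7A7, SLC1A3 and SLC1A1 passed whichever pool pair was left out, with adjusted p of at most 0.0246, 0.0353 and 0.0354. SLC38A2 did not pass without pair 3 (-0.98, adjusted p = 0.0506) or pair 4 (-0.99, 0.0593), nor SLC43A2 without pair 3 (0.64, 0.0538) or pair 4 (0.68, 0.0858). SLC1A5 and SLC7A8 did not pass without pair 2 (-0.50, 0.0760 and -0.48, 0.0916) or without pair 4 (-0.51, 0.0880 and -0.49, 0.104). The calls of the next 4 genes were lost without pair 2, without pair 3 and without pair 4. In that order, SLC7A5 was then at 0.99, 1.08 and 1.11 (adjusted p = 0.0880, 0.0673 and 0.0657) and SLC1A4 at -1.35, -1.22 and -1.22 (0.0600, 0.0601 and 0.0735). SLC15A1 was at 0.67, 0.71 and 0.67 (0.0906, 0.0689 and 0.111) and SLC38A11 at 0.62, 0.53 and 0.58 (0.0674, 0.153 and 0.139). These ratios were close to those of all 4 pairs. Without pairs 1, 2 or 4, SLC7A4 was at 1.00, 0.90 and 0.96 (adjusted p = 0.0521, 0.126 and 0.121) and SLC7A6 at 0.64, 0.58 and 0.72 (0.0784, 0.0714 and 0.106), not passing either. SLC15A4 passed in none of the 4 fits, with 0.58, 0.54, 0.44 and 0.63 (adjusted p = 0.0856, 0.137, 0.0644 and 0.0686). Over the 17 alternatives tried, the largest adjusted p of a called gene ran from 0.0652 for SLC7A7 to 0.260 for SLC38A11, and the smallest from 1.90e-06 for SLC7A7 to 0.00263 for SLC1A5. Averaging all probes of a gene in place of the brightest brought the ratios of 5 called genes nearer to 0. SLC1A3 was then at -0.58, SLC1A4 at -0.75, SLC38A2 at -0.37 and SLC38A11 at 0.29, all still past the adjusted p (0.00359, 0.0252, 0.0201 and 0.0348), and SLC7A6 was lost, as given above. From the deposited table SLC1A1 was at 0.87 and SLC7A8 at -0.76, larger than from the scanner values.

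Around the transporters, 9 lists of accessory proteins, other carriers, sensors and enzymes held 176 genes, of which 30 (17%) were called higher and 16 (9.09%) called lower, beside 12.1% and 9.52% of the named genes above the negative-control limit and 8.69% and 6.85% of all named genes. The share of lower calls was thus near the background. Some genes, among them CTH, CHAC1 and MTHFD2, stand in several lists. Each is counted as 1 gene in these totals but again in each of its lists below. The count of calls, 46, was 44, 30, 21 and 25 without pool pair 1, 2, 3 or 4. Of 20 genes listed as other carriers, 3 (15%) were higher and none was lower. Besides amino acid carriers they include the carnitine carrier SLC22A5 and the mitochondrial pyruvate carriers BRP44L and BRP44. Both lysosomal exporters among them were high and bright: CTNS (cystinosin), which releases cystine, at 1.45, 1.56, 1.65 and 1.56 (mean 1.56 ± 0.04, adjusted p = 0.00127), and PQLC2 (SLC66A1), which releases cationic amino acids, at 1.65, 1.01, 1.27 and 0.99 (mean 1.23 ± 0.12, adjusted p = 0.00931). SLC25A13, the mitochondrial aspartate and glutamate carrier, was at 0.31 (adjusted p = 0.0240) with a positive ratio on 5 of 8 arrays. Of 8 accessory proteins 1 (12.5%) was higher and none was lower. PDZK1, a scaffold of membrane carriers, was the higher one (1.02, adjusted p = 0.00917). BSG and TMEM27, the latter a partner of SLC6 carriers, were at 0.06 and -0.06 and not called.

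Of 31 genes of amino acid sensing by mTORC1, 3 (9.68%) were higher and 1 (3.23%) was lower, no larger shares than the 12.1% and 9.52% of named genes above the limit, so the calls are given for the single genes and not as a result about the list. Higher were TFEB (0.64), a transcription factor of lysosome genes held back by mTORC1, SESN1 (0.29), a sestrin that restrains mTORC1 through GATOR2, and LAMTOR3 (0.27, under its older symbol MAPKSP1), a subunit of the lysosomal anchor. The arginine sensor CASTOR1 (-0.36, under GATSL3) was lower. SESN1 and CASTOR1 each had the opposite sign on 4 of 8 arrays.

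The amino acid response, which the kinase EIF2AK4 starts when amino acids are short and ATF4 carries out, had 5 genes higher and 5 lower of 26. These are shares of 19.2% each, beside 12.1% and 9.52% of the named genes above the limit. Lower were the transcription factors ATF3 (-1.51, adjusted p = 0.00303), and ATF4 (-0.66, 0.0280), the kinase's target EIF2S1 (-0.36, 0.0145), DDIT4 (-0.63, 0.0376), a brake on mTORC1, and CHAC1 (-0.20, 0.0315). The enzymes ALDH1L2 (1.23, adjusted p = 0.00211) and MTHFD2 (0.69, 0.00365) of mitochondrial folate metabolism and CTH (1.01, 0.00180), which makes cysteine, were higher, as were CEBPG (0.23), a partner of ATF4, and ALDH18A1 (0.21) by smaller margins.

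Among the enzymes that use the transported amino acids, calls also fell on both sides. The shares of each list stand beside 12.1% higher and 9.52% lower of the named genes above the limit, and no list was tested as a set. For glutamine, glutamate and aspartate 5 of 19 (26.3%) were higher and 2 (10.5%) lower. The latter were GFPT2 (-2.53, adjusted p = 0.00971), which spends glutamine on hexosamine, and GLUL (-1.32, 0.0108), which makes glutamine. ALDH4A1 (1.42, 0.00439) and PRODH (0.58, 0.0228), successive enzymes of proline breakdown, and GOT2 (0.48, 0.0145), the mitochondrial aspartate aminotransferase, were higher. For branched-chain amino acids 4 of 19 (21.1%) were higher, BCAT1 (0.92), BCKDHB (0.46) and DLD (0.52) among them, and 3 (15.8%) lower. The lower genes were PPM1K (-1.01), the phosphatase that activates the branched-chain dehydrogenase, and HIBADH (-0.60) and HIBCH (-0.37), both of valine breakdown. In the list of arginine and polyamine enzymes 2 of 23 (8.7%) were higher and 3 (13%) lower. ARG2, the mitochondrial arginase, was at -1.39, -0.92, -0.98 and -1.08 (mean -1.09, adjusted p = 0.00543). Spermidine synthase SRM (0.62) and spermine synthase SMS (-1.31), successive steps of polyamine synthesis, lay on opposite sides.

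Cystine and glutathione enzymes had 5 genes (26.3%) higher and 1 (5.26%) lower of 19. The aminopeptidase LAP3 at 0.90 (adjusted p = 0.00276), the dipeptidase DPEP1 at 0.73 (0.00913) and CTH were higher. CHAC1, which degrades glutathione, was lower by a small margin (-0.20, 4 of 8 arrays negative). Serine, glycine and threonine enzymes had 5 (22.7%) higher and 2 (9.09%) lower of 22. GCSH of the glycine cleavage system (0.83) and MTHFD1L (0.97) were higher with MTHFD2, and both subunits of methionine adenosyltransferase, MAT2A (-0.77, 0.0101) and MAT2B (-0.65, 0.00168), were lower.

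**Figure D5:**
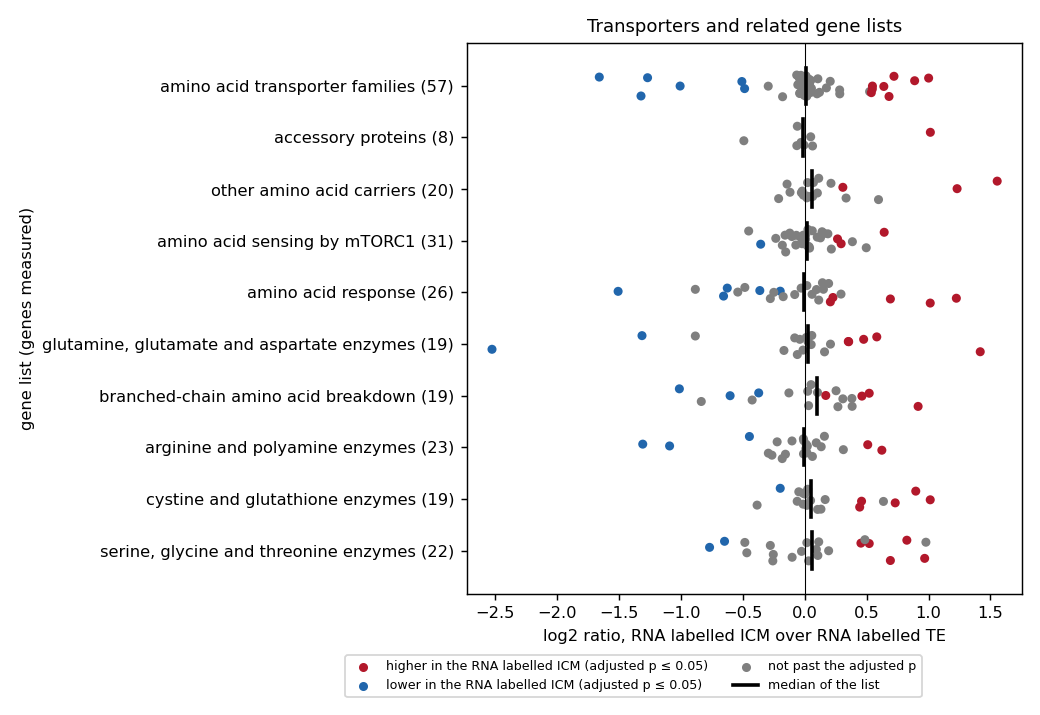
Log2 ratio of the RNA labelled ICM to that labelled TE (horizontal axis) for the 57 transporter genes and the genes of 9 related lists (vertical axis, with the number measured). Points are genes, red higher and blue lower at an adjusted p of 0.05 or less, and black bars are medians, which lie between -0.02 and 0.10 in every list.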

How the data were processed

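ICM and TE RNA of 4 pool pairs was measured on 8 two-color arrays. The authors deposited scanner output with raw intensity and local background intensity of both channels for 45220 spots per array, extracted with Array-pro, with neither background correction nor normalization. A second table that the authors deposited holds normalized log2 ratios, described in the methods as background-subtracted and normalized by loess and quantile. Its columns correlated across probes with log2 of Cy5 over Cy3 of the scanner files (r 0.730 to 0.856) and had medians of -0.0257 to 0.00451, its scale, centring and direction are not stated, and it was used as an alternative only.

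Ignored spots (at most 47 per array) were dropped. Raw mean intensities were corrected with the mean local background by normexp (offset 50), normalized by loess within arrays, with the 1426 control spots at weight 0, and by Aquantile between arrays, turned by the labels so that ICM is the numerator, and averaged over the 2 arrays of a pool pair. The offset shrinks the ratios of dim probes. The 4 means were tested against 0 with limma 3.58.1 (R 4.3.3; lmFit, eBayes) and adjusted over 43794 probes. The steps were tested on simulated arrays, which do not bear on the direction of the labels. Symbols came from the platform's annotation (21790 probes with 1 symbol, 22004 without), older ones matched through the synonyms that a bovine gene table (assembly ARS-UCD2.0) lists. The genome build of the array and probe sequences were not used here.

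The members and lists were chosen with earlier results of these data known. Named were all called members above the negative-control limit, the 10 brightest, and up to 3 genes of smallest p in each direction from each related list. Other members are named where a family or a slide difference needs it, after their values were seen. So were further genes of the lists, among them the remaining calls of the amino acid response and the uncalled BSG and TMEM27. Deviations from the mean of a dye orientation correlated within a pool pair number with r = 0.840, 0.656, 0.553 and 0.555 and across numbers with -0.548 to 0.158, so the numbers, which the labels give to both arrays of a dye swap, pair the arrays. Log ratios of different arrays, taken in the direction of the labels, had r of 0.498 to 0.822. Alternatives were other background corrections, median centring, the deposited table, the block, single slides, each pool pair left out, a filter on dim probes, all probes of a gene and other thresholds.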

Additional observations from a re-analysis of the deposited data

Results flagged for a closer look

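In the 57 transporter genes, 2 had a pool pair that stood far from the other three, by a gap above Dixon's 95% critical value. Chance flags about 1 in 20 groups of 4. SLC7A6OS was at -0.733 in pool pair 4, against -0.195 to -0.104 in the others, with a gap of 0.855 of the range, and was bright on all 16 channels. SLC38A4, a carrier of neutral amino acids, was at -0.114 in pool pair 4, against 0.002 to 0.017, with a gap of 0.885 of the range, and was above the negative-control limit on 3 of 16 channels. Pool pair 4 was the one in both, and neither gene was called.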

How the results depend on the processing

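All 14 called genes kept their sign in each of the 17 alternatives. For single slides and pool pairs left out this was given in advance, as each gene had a single sign on all arrays. The block and the dim-probe filter do not change the ratio at all. Background subtraction, an offset of 16, no background correction, the deposited table, the block and the dim-probe filter were tried. The median local background was added after seeing the data. These gave 8 to 12 genes higher and 6 or 7 lower. Leaving out the normalization between arrays could not change the main result, because Aquantile acts on mean intensities and not on log ratios. Averaging all probes of a gene gave 7 higher and 6 lower, and the slides alone 8 and 7 (ICM in Cy5) and 7 and 5 (TE in Cy5). Median centring in place of loess gave 0 genes higher and 0 lower, 333 probes over the array and 4 calls in the related lists, and the cause was not tested. An adjusted p at or under 0.01 left 1 gene higher, 3 lower, 1433 probes and 19 related calls, and the methods' rule (p under 0.01, fold over 2, adjusted p up to 0.20) 1 higher, 4 lower, 706 probes and 12 related calls. The replicate block called 7976 probes (7302 with a dye term) and changed the call of none of the 14 called genes but added SLC6A4, SLC36A2 and SLC38A6 as higher. The median ratio of the 57 genes was -0.009 on the slide with ICM in Cy5 and 0.046 on that with TE in Cy5, and SLC6A8 reversed to -0.179 on the former. Leaving out one replicate gave 1 to 5 genes higher, 2 to 6 lower, 2069 to 3968 probes, a median of 0.009 to 0.026 and 21 to 44 related calls. The 4 pool pairs and the 8 arrays limit the precision, and for the 19 dim genes the signal over background does.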
